A study of Arabidopsis thaliana with 4 samples.

Results

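The 10 genes described here store iron or belong to the iron deficiency response of Arabidopsis thaliana. They comprise the ferritin genes FER1, FER3 and FER4, the iron-sulfur protein gene NEET, the vacuolar iron transporter-like gene VTL5, the transcription factor genes bHLH38, bHLH39, bHLH100 and bHLH101, and the E3 ubiquitin ligase gene BTS. They were taken by locus name, 1 probe each, from 25665 loci with a probe, of which 18450 were tested. The set was drawn up with the ang3 against Ler ratios of these same arrays in view, so those ratios are given for the 10 genes as a description, with no test.

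The mutant plants carried ang3, an allele of the ribosomal protein gene RPL5B with altered leaf shape, and the control plants were Ler, the Landsberg erecta accession. Seeds of both had 3 days of cold and seedlings then grew in vitro at 21 °C with 16 h of light. The green parts around the shoot apex were collected, at stage 1.02 by the sample labels and at stage 1.03 by the series text. ang3 RNA and Ler RNA were hybridised together on each of 4 two-colour arrays, with ang3 in Cy5 on replicates 1 and 3 and in Cy3 on replicates 2 and 4. The series text calls the replicates biological and does not state which arrays share plants or extracts, and where extracts were shared the spread between arrays is partly technical.

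Ferritins hold iron inside plastids and mitochondria in a form that cannot drive oxidative damage, and their transcripts accumulate when iron is plentiful. In iron deficiency, transcripts of the subgroup Ib basic helix-loop-helix factors bHLH38, bHLH39, bHLH100 and bHLH101 accumulate in roots and leaves, and the encoded proteins act in dimers with other bHLH proteins on genes of iron uptake and distribution. BTS binds iron through hemerythrin domains and marks the bHLH factors upstream of this response for degradation. BTS transcripts themselves accumulate in iron deficiency.

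NEET, FER1 and FER4 were lower in ang3 on every array on which they were measured. NEET averaged -1.34 as log2 ang3 over Ler, FER1 -0.93 and FER4 -0.88. The 4 bHLH genes and BTS had fitted means above Ler, from 0.69 for BTS to 1.48 for bHLH100, but the ratios of each ran from below 0 on replicate 2 to well above 1 on replicate 4. Their ang3 levels varied less between arrays than their Ler levels, which were high on replicates 1 and 2 and low on replicates 3 and 4. A probe was called where the adjusted p of the limma fit over all 20155 features was under 0.05. By that rule 3 of the 10 genes were lower in ang3, beside 11.2% of all features, and 0 were higher, beside 15% of all features. In either direction the rule called 26.2% of all features. At an unadjusted p under 0.05 the number higher was also 0.

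**Figure D1:**
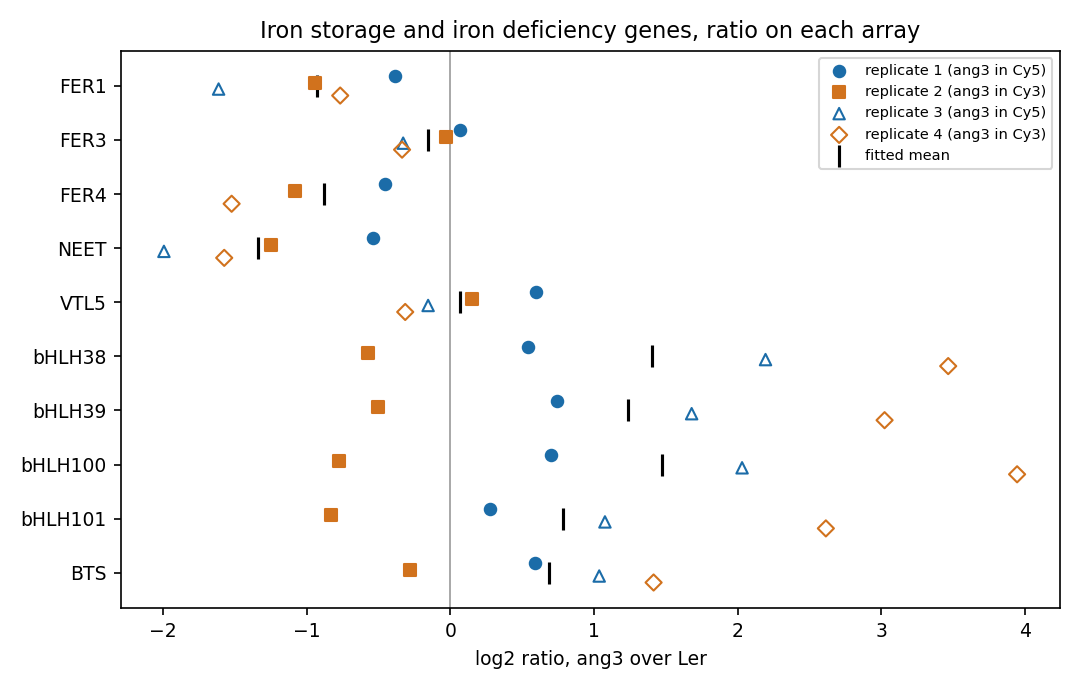
Log2 ratio of ang3 over Ler for each of the 10 genes, with 1 point per array and the fitted mean as a vertical bar. NEET, FER1 and FER4 lie left of 0 on every measured array, while the 4 bHLH genes and BTS lie left of 0 on replicate 2 and right of 0 on the other arrays.

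FER1 (At5g01600) encodes a plastid ferritin and is the ferritin best known for its response to iron supply in leaves. Its log2 ratios were -0.39, -0.94, -1.61 and -0.77 on replicates 1 to 4. All 4 were below 0, and the fitted mean was -0.93 ± 0.51 (SD, n = 4), a level 1.90-fold higher in Ler. The SE of the fit was 0.198, and FER1 was no longer called with the processed signals, without replicate 2 or without replicate 4. On the log2 scale its channel level was 11.89, 11.97, 11.39 and 12.48 in ang3, against 12.28, 12.92, 13.00 and 13.24 in Ler. The ranges overlap, because the ang3 level of replicate 4 is above the Ler level of replicate 1. The samples are tissue of the green parts around the shoot apex, so fewer cells of a type and less RNA per cell cannot be told apart.

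FER4 (At2g40300) encodes a ferritin found in plastids and mitochondria. Its ratios were -0.45, -1.08 and -1.52 on replicates 1, 2 and 4. The spot on replicate 3 was flagged as non-uniform and left out, and its raw median intensities were 215 in ang3 and 308 in Ler, the same direction as on the other arrays. The fitted mean was -0.88 ± 0.54 (SD, n = 3), which weights the dye orientations and is therefore not the plain mean of the 3 ratios. The ang3 level was nearly constant, at 10.82, 10.77 and 10.77, against 11.27, 11.85 and 12.29 in Ler. The groups do not overlap, and the spread between arrays lies almost wholly in Ler, with an SD of 0.0267 in ang3 and 0.511 in Ler.

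FER3 (At3g56090), a further plastid ferritin gene, had ratios of 0.07, -0.03, -0.33 and -0.34. Its fitted mean was -0.16 ± 0.21 (SD, n = 4), so the spread exceeded the mean, and with median centring the mean was 0.03. Its level was 11.04, 11.04, 10.80 and 10.94 in ang3 and 10.97, 11.07, 11.13 and 11.28 in Ler, and the groups overlap. FER3 was the only ferritin of the 3 whose ratio took both signs.

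NEET (At5g51720) encodes a small protein of plastids and mitochondria that carries an iron-sulfur cluster and has been linked to iron handling and leaf senescence. Its ratios were -0.54, -1.25, -1.99 and -1.57, and its fitted mean of -1.34 ± 0.61 (SD, n = 4) was the lowest of the 10 genes. The level was 2.53-fold higher in Ler. NEET was no longer called without replicate 2 or without replicate 4. It measured 12.84, 12.52, 11.94 and 12.84 in ang3, against 13.38, 13.76, 13.93 and 14.41 in Ler. Every ang3 level lay below every Ler level. VTL5 (At3g25190), a member of a family whose characterised proteins move iron into the vacuole, had ratios of 0.60, 0.15, -0.16 and -0.31. Its fitted mean was 0.07 ± 0.40 (SD, n = 4), with 2 arrays above 0 and 2 below. Its level was 10.97, 10.61, 10.41 and 10.41 in ang3 and 10.37, 10.47, 10.57 and 10.72 in Ler, and the groups overlap.

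bHLH100 (At2g41240) had the highest fitted mean and the widest spread of the 10 genes. Its ratios were 0.70, -0.78, 2.03 and 3.94, with a fitted mean of 1.48 ± 2.01 (SD, n = 4). The ang3 level was 12.98, 12.11, 12.74 and 13.06, against 12.28, 12.88, 10.71 and 9.11 in Ler. Thus the ang3 levels spanned less than 1 log2 unit, and the 2 low Ler values were those of replicates 3 and 4. The raw median intensities of its spots showed the same spread before any normalization. They were 10144 and 7639 in ang3 labelled with Cy5, and 3641 and 6823 in ang3 labelled with Cy3. In Ler they were 4422 and 1365 with Cy3 on replicates 1 and 3, and 10039 and 551.5 with Cy5 on replicates 2 and 4.

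bHLH38 (At3g56970) and bHLH39 (At3g56980) lie next to each other, with 0 genes between them in the RefSeq annotation of TAIR10.1. The ratios of bHLH38 were 0.54, -0.58, 2.19 and 3.47, with a fitted mean of 1.41 ± 1.78 (SD, n = 4). Those of bHLH39 were 0.74, -0.50, 1.68 and 3.02, with a fitted mean of 1.24 ± 1.49 (SD, n = 4). For both genes 3 arrays were above 0 and replicate 2 was below. The level of bHLH38 was 12.75, 12.29, 12.85 and 12.82 in ang3, against 12.21, 12.87, 10.66 and 9.36 in Ler. The level of bHLH39 was 11.48, 10.64, 11.21 and 11.12 in ang3, against 10.73, 11.15, 9.53 and 8.09 in Ler. Again the ang3 values lay closer together than the Ler values, and the groups overlap. The 2 genes are close relatives, and how far each probe also binds the transcript of the other was not tested.

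bHLH101 (At5g04150) had ratios of 0.28, -0.83, 1.08 and 2.61 and a fitted mean of 0.78 ± 1.45 (SD, n = 4). Its level was 12.31, 11.60, 12.04 and 12.38 in ang3, against 12.03, 12.43, 10.96 and 9.77 in Ler. It had the smallest mean ratio of the 4 bHLH genes, and its fitted mean was -0.08 without replicate 4. BTS (At3g18290) had ratios of 0.59, -0.28, 1.04 and 1.41 and a fitted mean of 0.69 ± 0.73 (SD, n = 4). Its level was 11.31, 10.59, 11.23 and 11.06 in ang3, against 10.72, 10.87, 10.19 and 9.65 in Ler. The fitted mean of BTS was below those of the 4 bHLH genes. On each array its ratio had the same sign as theirs, below 0 on replicate 2 and above 0 on the others.

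**Figure D2:**
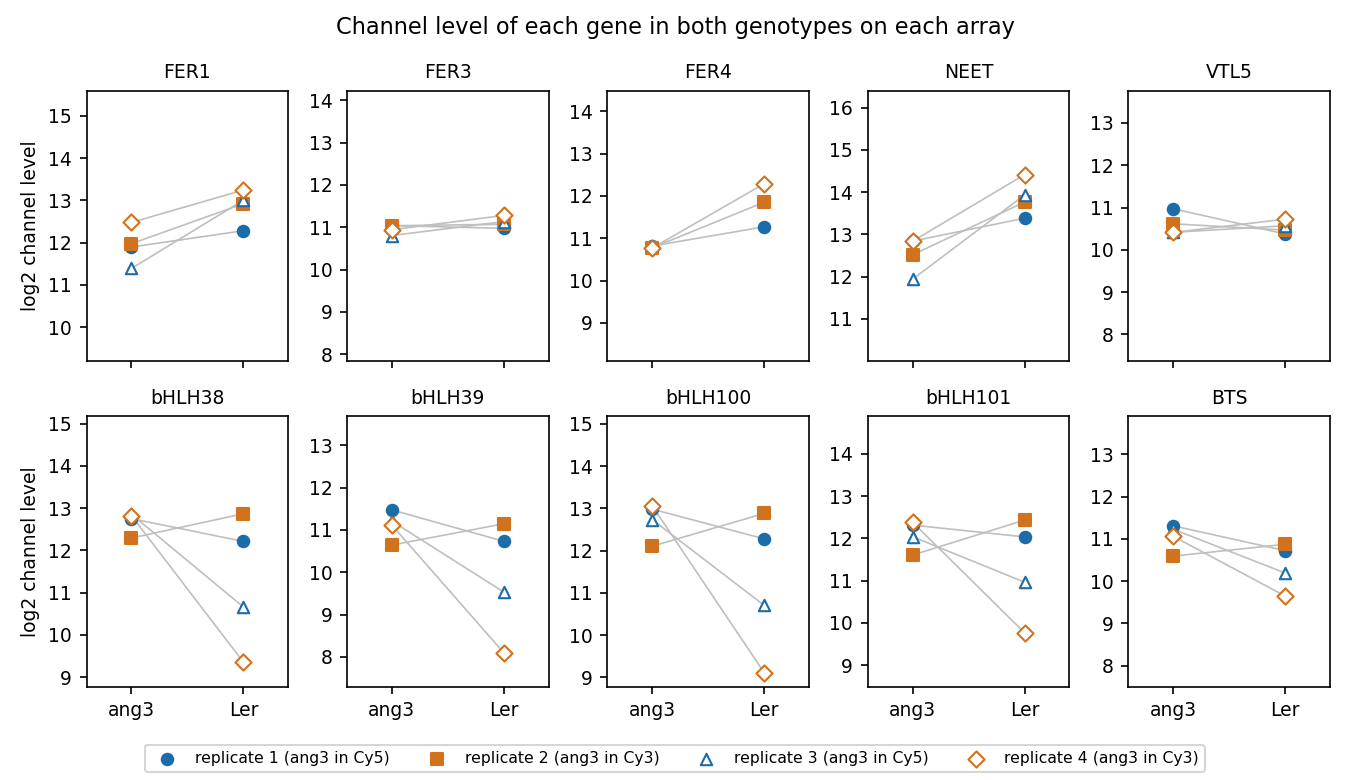
Log2 channel level of each gene in ang3 (left) and Ler (right), with a line joining the 2 channels of an array; each panel spans the same number of log2 units around its own mean. The ang3 points of the 4 bHLH genes and BTS lie closer together than their Ler points, which fan out, and NEET, FER1 and FER4 slope upward to Ler on every measured array.

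The spread between arrays was compared with that of the other features. Over the 20155 features the median SD of the channel level was 0.0918 in ang3 and 0.0807 in Ler, and the median SD of the ratio was 0.101. The SD of bHLH100 was 0.433 in ang3 and 1.69 in Ler, and 0.0744% of features had a Ler SD at least that large. For bHLH38 the SDs were 0.262 in ang3 and 1.58 in Ler, for bHLH39 0.347 and 1.37, for bHLH101 0.353 and 1.20, and for BTS 0.321 and 0.555. NEET and FER1 varied about equally in both genotypes, with 0.425 in ang3 and 0.427 in Ler for NEET, and 0.445 in ang3 and 0.411 in Ler for FER1. The ang3 SDs were large as well, since only 1.22% of features had an ang3 SD at least that of bHLH100, 2.13% that of bHLH101, 2.19% that of bHLH39, 2.67% that of BTS and 4.21% that of bHLH38. The Ler SDs of these 5 genes were larger still.

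The difference between Ler arrays held within a dye. Among the Cy5-labelled Ler channels, bHLH100 was 13.6-fold higher on replicate 2 than on replicate 4, and 0.0149% of features differed by at least as much. The same comparison gave 11.4-fold for bHLH38, 8.30-fold for bHLH39, 6.34-fold for bHLH101 and 2.33-fold for BTS. Among the Cy3-labelled Ler channels, replicate 1 was above replicate 3 by 2.98-fold for bHLH100, 2.93-fold for bHLH38, 2.30-fold for bHLH39, 2.1-fold for bHLH101 and 1.44-fold for BTS. The ang3 channels differed less, by a log2 value of -0.95 between Cy3-labelled replicates 2 and 4 for bHLH100 and of 0.25 between Cy5-labelled replicates 1 and 3. NEET and FER1 ran the other way in Ler, with log2 differences of -0.65 and -0.32 between Ler replicates 2 and 4, and of -0.55 and -0.72 between Ler replicates 1 and 3. On the Ler arrays with low bHLH levels, the levels of these 2 storage-side genes were therefore the higher ones. Replicates 3 and 4 also had fewer probes well above background than replicates 1 and 2 in both genotypes. There were 21332, 21049, 20905 and 19678 such probes in ang3 and 21128, 21057, 20765 and 19224 in Ler on replicates 1 to 4, and the part of this in the Ler differences was not tested.

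The order of the 4 arrays was shared within the gene set. All 4 bHLH genes and BTS, 5 of the 9 genes with 4 ratios, had their lowest ratio on replicate 2, then replicates 1, 3 and 4. That order was found in 3.06% of the 20145 features with 4 ratios, and 0.223% had both that order and a range of at least 1 log2 unit. In Ler the levels of the same 5 genes were lowest on replicate 4, then 3, 1 and 2, an order found in 3.97% of features. FER1, FER3, NEET and VTL5 had their lowest Ler level on replicate 1, then 2, 3 and 4, an order found in 5.27% of features. These orders describe the arrays at hand, and the genes of the set are not independent of each other.

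The dye intercept of the limma fit, which asks whether a ratio differs between the dye orientations, passed the threshold for 0 of 20155 features, while 3020 had an unadjusted p under 0.05. The lowest adjusted p for the dye intercept among the 10 genes was 0.27 (limma), that of FER4. The study's own criterion for a single array asked for p below 0.05 together with a change of more than 1 log2 unit. In the authors' deposited values no member passed it on replicate 1, where 1.58% of probes did, and NEET and FER4 passed as lower in ang3 on replicate 2, where 2.93% did. On replicate 3 the authors' deposited values put 8 of the 10 genes past it, 5 higher and 3 lower, beside 2.38% of probes. On replicate 4 they put 7 past it, 5 higher and 2 lower, beside 1.86% of probes. The 5 higher on these arrays were the 4 bHLH genes and BTS. Replicates 3 and 4 carry the high bHLH ratios and the lowest Ler levels at once. These are not separate results, since each log2 ratio is the ang3 level minus the Ler level of the same array.

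**Figure D3:**
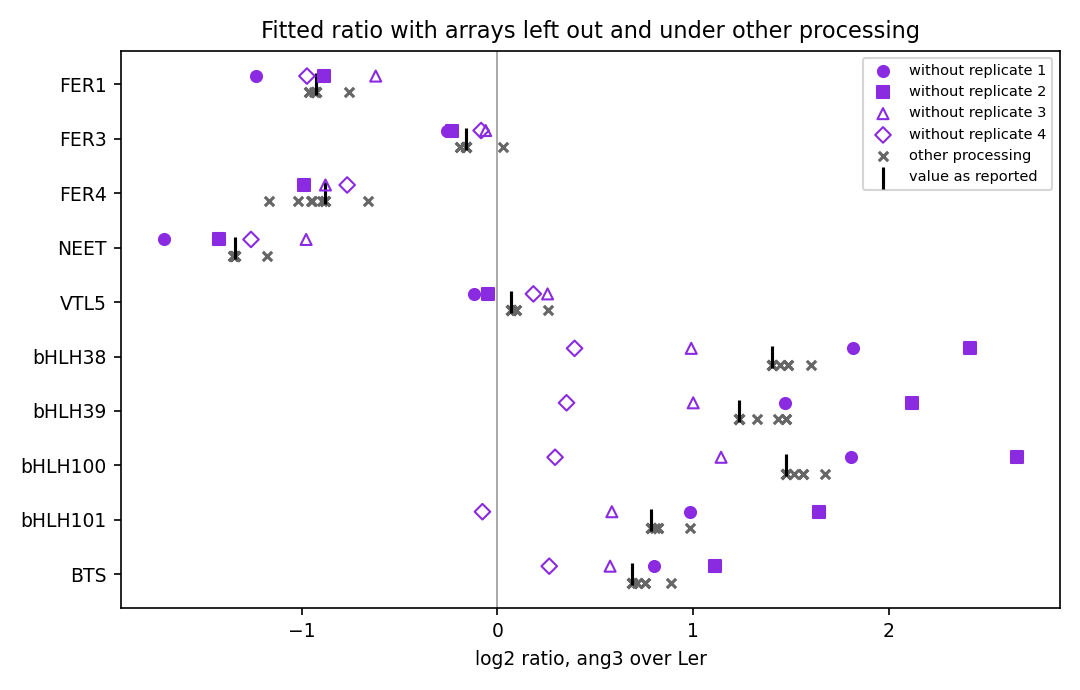
Fitted log2 ratio of ang3 over Ler for each gene, as reported (bar), with each array left out in turn (purple symbols) and under other processing of the same arrays (crosses). Leaving out replicate 4 moves the bHLH genes toward 0 and leaving out replicate 2 moves them away from it, while NEET, FER1 and FER4 stay below 0 in every setting drawn.

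Leaving out replicate 2 or replicate 4 moved the bHLH genes and BTS more than any other alternative run. Without replicate 4 the fitted mean of bHLH100 was 0.30 and without replicate 2 it was 2.66. The same 2 settings gave 0.39 and 2.42 for bHLH38, 0.35 and 2.12 for bHLH39, and 0.27 and 1.11 for BTS. Without replicate 2 the limma rule called all 4 bHLH genes and BTS higher in ang3, and with all arrays kept and median centring it called bHLH39 and BTS higher. These calls are given as a description, like the ratios they come from. With replicate 2 left out, replicate 4 alone has ang3 in Cy3. Given the dye intercept, its ratio then adds nothing to the residual spread of that fit. The number called lower was 1 without replicate 2, 2 without replicate 1 and 1 without replicate 4. NEET ranged from -1.70 to -0.98 over the 4 omissions, FER1 from -1.23 to -0.62 and FER4 from -0.99 to -0.77, where FER4 could not be fitted without replicate 1.

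Another 72 genes of iron homeostasis, in 5 lists, were set beside the 10, and 59 of them were tested. Of these, 8 were called higher, 9 lower and 42 did not pass, with a median log2 ratio of -0.04. The median over all features was 0.011. Over the 5 lists together 13.6% were called higher and 15.3% lower, near the 15% higher and 11.2% lower of all features. These shares of all features also stand beside the counts of each list below. The calls were unevenly divided between the lists, but each list held few calls and the division was not tested.

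Among 11 tested regulators of the iron deficiency response, 3 were called higher and 0 lower, and the median ratio was 0.14. bHLH104 (0.14, limma, adjusted p = 0.036), bHLH115 (0.16, limma, adjusted p = 0.038) and the BTS relative BTSL2 (0.29, limma, adjusted p = 0.045) rose slightly. None of these 3 was called with the processed signals (limma, adjusted p = 0.071, 0.080 and 0.10), nor without replicate 2, 3 or 4. bHLH104 and bHLH115 also lost the call without replicate 1 (limma, adjusted p = 0.14 and 0.092) and with offset 0 (limma, adjusted p = 0.051 and 0.054). bHLH104, bHLH115 and ILR3 are among the subgroup IVc factors that act upstream of the bHLH38 group, and are targets of BTS. bHLH34, of the same subgroup and named after its value was seen, had ratios of both signs. Its mean was 0.11 (limma, adjusted p = 0.31). ILR3 had a ratio of -0.13 (limma, adjusted p = 0.052), and with the processed signals it was the 1 regulator called, at -0.27 (limma, adjusted p = 0.041). URI had a ratio of -0.08, or 0.11 with median centring, and FIT, the root partner of the bHLH38 group, 1 of -0.08 (limma, adjusted p = 0.17). PYE, a transcriptional repressor within the response, had ratios of 0.13, 0.22, 0.56 and 1.05 (limma, adjusted p = 0.071). PYE was called higher with median centring (0.69, limma, adjusted p = 0.0092) and without replicate 2 (0.70). Neither these upstream factors nor FIT showed the wide spread of the bHLH38 group. For FIT and ILR3 this was read at low levels, from 7.45 to 7.88 and from 7.82 to 8.25 over both genotypes. Their mean ratios were larger in size with the processed signals, at -0.17 and -0.27. How far the low signal of FIT and ILR3 narrowed their spread was not tested, so the comparison is limited for these genes.

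IMA1 and IMA2 encode small iron-responsive peptides that promote the deficiency response, and their ratios ordered the arrays as those of the bHLH38 group did. The ratios of IMA1 were 0.09, -0.23, 1.72 and 2.13 and those of IMA2 were 0.45, -0.17, 1.84 and 2.43. With mean ratios of 0.93 and 1.14, neither passed the threshold (limma, adjusted p = 0.19 and 0.13). The IMA1 level was 11.92, 11.62, 12.29 and 12.04 in ang3, against 11.83, 11.86, 10.57 and 9.91 in Ler. As for the bHLH38 group, the low values were those of Ler on replicates 3 and 4.

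Of the 59 tested genes, 6, or 10.2%, shared that order of arrays, and all 6 ranged over at least 1 log2 unit. They were IMA1, IMA2, the root ferric reductase gene FRO2, FRO3, ZIF1 and the vacuolar iron exporter gene NRAMP4, of which FRO3, ZIF1 and NRAMP4 were singled out after their values were seen. The mitochondrial ferric reductase gene FRO3 had ratios of 0.24, -0.08, 1.21 and 1.88, with an ang3 level of 12.89 to 13.20, against 12.78, 12.97, 11.99 and 11.31 in Ler. OPT3, a phloem iron transporter gene, had ratios of 0.05, -0.09, 0.73 and 0.68 (limma, adjusted p = 0.18). Its order differed from the others only in the places of replicates 3 and 4.

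Of 12 tested genes of iron uptake and reduction, 1 was called higher and 3 lower, with a median ratio of -0.04. The ferric reductase genes FRO6 (-0.61, limma, adjusted p = 0.013), FRO7 (-0.39, limma, adjusted p = 0.014) and FRO4 (-0.60, limma, adjusted p = 0.0081) fell in ang3, and FRO8 rose (0.31, limma, adjusted p = 0.011). Without replicate 2 the list held 3 higher and 1 lower call, as FRO6 and FRO7 lost theirs (limma, adjusted p = 0.054 and 0.057) and FRO2 gained one (0.54, limma, adjusted p = 0.036). Without replicate 3 it held 0 higher and 2 lower, and with median centring 3 higher and 2 lower. FRO7 is the plastid reductase that supplies iron to photosynthesis. The root uptake gene IRT1 had a ratio of -0.04, or 0.36 with the processed signals, and FRO2 one of 0.26 (limma, adjusted p = 0.33), and for both the 4 arrays took both signs. IRT1 levels were low, at 7.14 to 7.65 in Ler, where it was above background on 3 arrays. Of 10 tested genes of nicotianamine synthesis and long-distance transport, 3 were called higher and 1 lower. The nicotianamine synthase genes moved apart, with NAS1 at 0.51 (limma, adjusted p = 0.044) and NAS3 at -0.62 (limma, adjusted p = 0.029). YSL2 (0.30, limma, adjusted p = 0.040) and YSL3 (0.21, limma, adjusted p = 0.046), named after its value was seen, encode transporters of the metal-nicotianamine complex and rose. NAS1, YSL2 and YSL3 were not called with the processed signals, and no gene of this list was called without replicate 3 or without replicate 4.

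Of 10 tested genes of iron transport and storage in organelles, 1 was called higher and 1 lower. The vacuolar exporter gene NRAMP3 was at 0.19 (limma, adjusted p = 0.043) and the organelle transporter gene FPN3 at -0.25 (limma, adjusted p = 0.039), and neither was called with the processed signals or without replicate 2, 3 or 4. NRAMP3 was not called without replicate 1 either. VTL1 and VTL2, relatives of VTL5, had ratios of -0.12 and 0.01, the second being -0.094 with the processed signals, and the seed ferritin gene FER2 had one of 0.05. VTL2 and FER2 were above background on 3 arrays in each genotype, so their ratios were read near background. Among 16 tested genes of iron-sulfur assembly and iron enzymes, 0 were called higher and 4 lower. They were FSD1 (-0.89, limma, adjusted p = 0.015), the iron superoxide dismutase gene, the plastid iron-sulfur scaffold gene SUFB (-0.72, limma, adjusted p = 0.016), the iron-sulfur carrier gene HCF101 (-0.29, limma, adjusted p = 0.013) and the plastid cysteine desulfurase gene NFS2 (-0.18, limma, adjusted p = 0.024), whose ratio was 0.0071 with median centring. Without replicate 3, 0 of the 16 were called. FSD1 and SUFB were lower in ang3 on all 4 arrays, as NEET and FER1 were.

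**Figure D4:**
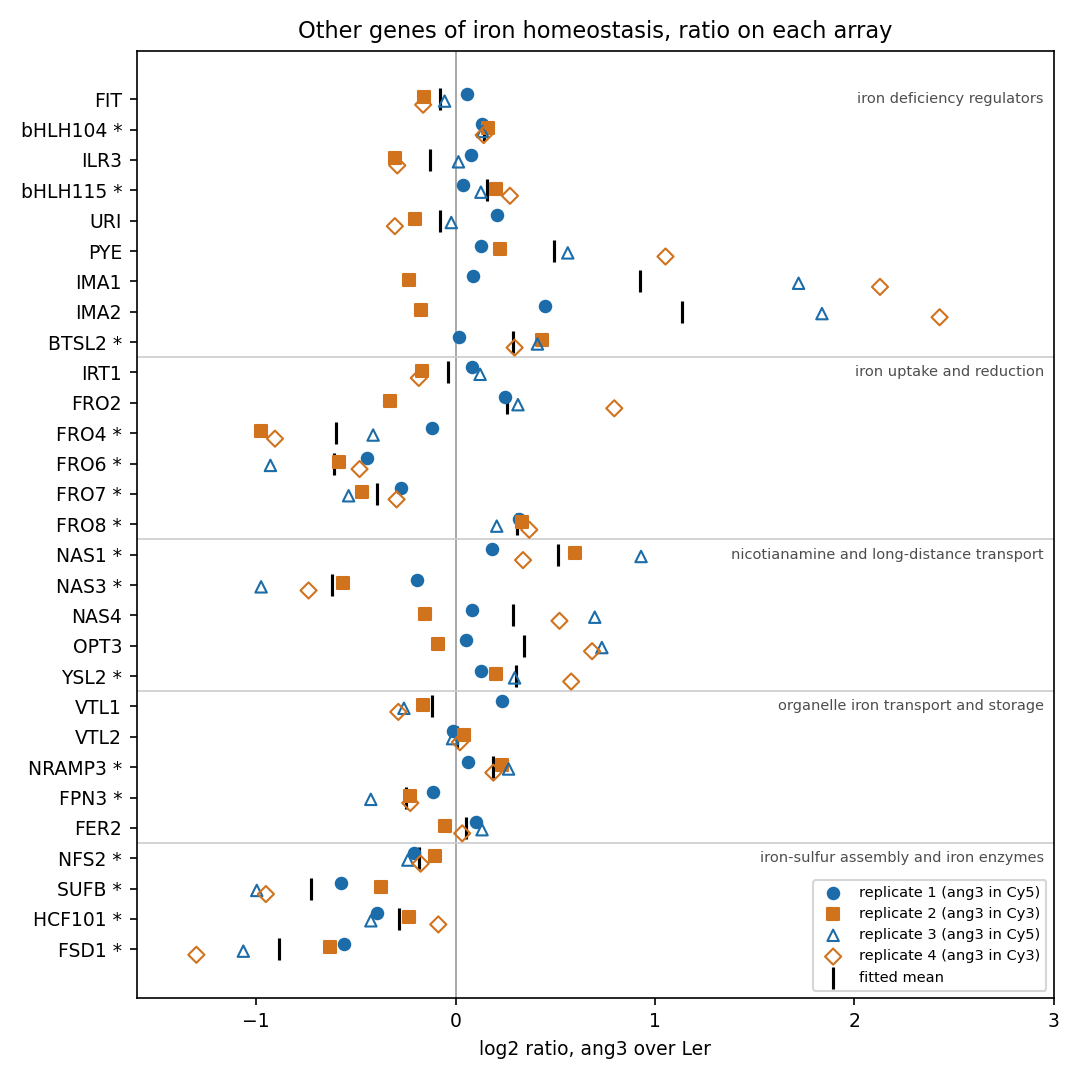
Log2 ratio of ang3 over Ler on each array for the other named iron genes, grouped by list, with the fitted mean as a vertical bar and an asterisk where the limma call passed. IMA1 and IMA2 spread to the right on replicates 3 and 4, while FSD1, SUFB, FRO6 and FRO7 lie left of 0 on all 4 arrays.

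The genes whose 4 ratios lay nearest those of 3 members were listed by Euclidean distance over the arrays. Nearest to bHLH100 were bHLH38 at a distance of 0.57 log2 units, AT4G36700 at 0.77, bHLH39 at 1.02, AT2G14247 at 1.62 and IMA2 at 1.66. AT4G36700 had ratios of 0.34, -0.67, 2.34 and 3.35. Nearest to FER1 were DIN10, the protochlorophyllide reductase gene PORA, AT5G54585, AT2G20670 and the methionine sulfoxide reductase gene MSRB6, at distances of 0.52 to 0.59. Nearest to NEET were AT1G11740, the asparaginase gene ASPGB1, AT5G02540, AT5G44440 and FER1, at distances of 0.66 to 0.96. With the processed signals only 4 of these 15 neighbours were found again.

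Markers of tissue were read in the same channels, since several of these iron genes are also known from roots. Of 9 root markers, 7 were above background on 0 arrays in either genotype (EXPA18, LRX1, PRP3, RHD6, PER73, PLT1 and PLT2). The remaining root markers were detected on some arrays, EXPA7 on 3 in ang3 and 1 in Ler, and COBL9 on 3 in ang3 and 2 in Ler. The summed raw intensity of the root list was 784.5 to 1088.5 in ang3 and 699.5 to 1023.5 in Ler. Among 6 shoot apex markers, STM, KNAT1 and CLV1 were above background on all arrays while WUS and CLV3 were above it on 0, with list sums of 5446 to 8284.5 in ang3 and 6079 to 9569 in Ler. STM had log2 ratios of 0.24, 0.55, 0.24 and 0.42 and KNAT1 of 0.36, 0.18, 0.41 and 0.33, so both were higher in ang3 on all 4 arrays. UFO, above background on 4 arrays in ang3 and 3 in Ler, was also higher, at 0.11, 0.31, 0.078 and 0.17. CLV1 went the other way and was lower in ang3 on all 4 arrays, at -0.099, -0.28, -0.24 and -0.087. All 5 green leaf markers were above background on every array. LHCB1.3 had ratios of -0.79, -0.24, -0.67 and -0.07 and LHCB2.1 of -1.05, -0.17, -0.53 and -0.12, lower in ang3 on all 4 arrays. Both lay furthest below 0 with ang3 in Cy5, on replicates 1 and 3. NEET and FER1 shared the sign but lay closest to 0 on replicate 1. RBCS1A was also lower on all 4 arrays, at -0.092, -0.25, -0.18 and -0.14, and RCA took both signs. RBCS2B was higher on all 4, at 0.55, 0.29, 0.51 and 0.28. The part of these marker differences in the iron gene ratios was not tested. The 10 iron genes were above background on 4 arrays in both genotypes.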

How the data were processed

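Per the submitters' processing notes, Agilent Feature Extraction 10.1.1.1 read the scans. The spot and background values used are deposited median pixel intensity values, not normalized; the design named mean signals, and medians were used since the files hold them. Processed intensity values were background-subtracted and dye-normalized within each array, per the file headers. The deposited log10 ratio, with a deposited p-value per spot, was used for the study's criterion. It matched processed red over processed green within 0.001 on 71.6%, 71.7%, 75.3% and 66.8% of spots on replicates 1 to 4. Why the other spots differed was not tested. The authors' deposited series table holds log2 ratios, turned here to ang3 over Ler. Its medians per array were -0.045, 0.026, 0.0077 and -0.097, and how it was centred is not given in the sources used here.

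In limma 3.58.1 (R 4.3.3), normexp with an offset of 50 was followed by loess within each array, with control and outlier-flagged spots at weight 0. Spots of a probe were averaged and the brightest probe stood for a locus. A probe was kept if either genotype's channel was well above background on 3 or more arrays, giving 20155 features. lmFit and eBayes used a dye intercept and a genotype term, two-sided, with Benjamini-Hochberg adjustment over all features. Each array was 1 replicate (n = 4), with 2 residual and 3.03 prior degrees of freedom. Channel levels were scaled between arrays (Aquantile). The 4 arrays came from 1 slide and 1 scan, so no batch could be tested. Per channel, 19224 to 21332 of 37478 probes were well above background and 0 spots were saturated, and the number of arrays limits the precision.

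The 10 genes and all gene lists were chosen with earlier results of these data known. Named from the 5 lists were called genes whose 4 ratios had 1 sign, plus a set of main regulators and transporters. RefSeq gene names (TAIR10.1) matched 25449 of 25665 loci. In simulated data of 20155 features with 200 changed by 1 log2 unit, the fit recovered 100%. The simulated noise had the same SD for every feature, the median SD of the ratios (0.101), and no dye effect. All 10 genes had larger ratio SDs, so this recovery does not carry over to them. Alternatives were the processed signals, median centring, offset 0, no dye intercept, other filters, the mean of probes, the authors' table, each replicate left out and, chosen after seeing the data, flagged spots kept. Figures were drawn with matplotlib 3.10.9 in Python 3.11.15.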

Additional observations from a re-analysis of the deposited data

How the results depend on the processing

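Outside the omissions of an array, FER3 reached 0.03 and FER4 ran from -1.17 to -0.66. The number of the 10 genes called higher was 0 as reported, 2 with median centring and 0 to 5 with an array left out. The number called lower was 3, and 1 to 3 with an array left out. Median centring moved the median of all features to 0.14, against 0.011, and gave 6952 higher and 425 lower calls, against 3018 and 2265. It called 7 regulators, all higher (3 higher as reported), and 8 transport genes, 7 higher and 1 lower (3 and 1 as reported). NFS2 became 0.0071 and URI 0.11. The processed signals and the authors' table each called 1 regulator and 2 transport genes, all lower, and 0 organelle genes (2 as reported), with IRT1 at 0.36 and VTL2 at -0.094; the processed signals kept 4 of the 15 nearest patterns. Offset 0 called 1 transport gene and 1 organelle gene, and no filter called 1 and 0. With an array left out, the lists gave 0 to 2 regulators, 2 to 4 uptake genes (3 higher and 1 lower without replicate 2, against 1 and 3 as reported), 0 to 3 transport genes, 0 to 1 organelle genes and 0 to 4 iron-sulfur genes. The causes were not tested. Of 345 alternatives for the named pathway genes, 259 kept direction and side of the threshold, 66 lost the call, 12 gained it and 8 changed sign. Over the omissions FRO2 ranged from -0.023 to 0.54 and VTL1 from -0.24 to 0.0046, and bHLH101 and VTL5 also changed sign. Without replicate 3 the calls over all features were 374 higher and 162 lower. Each ratio is taken within an array, so the fit already pairs the genotypes, and no further replicate block was added.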
